A study of Caenorhabditis elegans with 24 samples.

Results

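The metallothionein and iron storage genes of *C. elegans* were followed through total mRNA and translated mRNA. The 5 genes were taken by name out of the 45461 genes of the deposited table: the metallothioneins *mtl-1* (K11G9.6) and *mtl-2* (T08G5.10), the ferritins *ftn-1* (C54F6.14) and *ftn-2* (D1037.3), and *smf-3* (Y69A2AR.4), which is a metal importer and not a storage protein. The 24 libraries were made from whole worms at day 4 of adulthood, raised at 20°C, and comprise 6 groups of 4 biological replicates. DM libraries come from *daf-2;rsks-1* double mutants that were fully fed (ad libitum, AL), DR libraries from wild-type N2 worms under dietary restriction by diluted food from day 1 of adulthood, and AL libraries from fully fed N2 worms; FuDR was present in all groups to prevent progeny. The labels name neither the alleles of the double mutant nor how many isolates were used, and no single mutant was part of the comparisons here. Unfractionated samples gave total mRNA, and gradient fractions with 2 or more ribosomes gave translated mRNA. Values are CPM as deposited, read counts scaled for library size and RNA composition, and are given as mean ± SD over 4 libraries.

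Metallothioneins are small cysteine-rich proteins that bind zinc, cadmium and copper. In *C. elegans*, *mtl-1* is known to be active in the pharynx without added metal and in the intestine after metal exposure, whereas *mtl-2* is active in the intestine. Ferritins oxidise iron and store it in a protein shell; *ftn-1* is known as the intestinal, strongly iron-regulated ferritin, repressed through the hypoxia factor HIF-1 when iron is low, and *ftn-2* as the more widely and more abundantly expressed one. The SMF-3 protein is related to mammalian DMT1 and takes up iron and manganese at the intestinal surface. Genes of this group, *mtl-1* and *ftn-1* among them, are commonly used as readouts of the insulin-like DAF-2 pathway and its transcription factor DAF-16.

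The 5 genes lie on chromosomes V (*mtl-1*, *mtl-2* and *ftn-1*), I (*ftn-2*) and IV (*smf-3*), and all are annotated as protein coding. The metallothioneins have 2 exons each, the ferritins 3 each and *smf-3* has 12. Exon lengths are 373 nt for *mtl-1*, 347 nt for *mtl-2*, 606 nt for *ftn-1*, 651 nt for *ftn-2* and 1942 nt for *smf-3*. No exon of the 5 genes overlaps an exon of another annotated gene, which matters because the libraries do not keep the strand. The coding sequences of *ftn-1* and *ftn-2* have the same length of 510 nt, and those of *mtl-1* and *mtl-2* have 225 and 189 nt.

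The libraries hold 7960544 to 15658505 reads on genes, and in translated mRNA the 5 genes together took 0.158% to 0.185% of the reads in DM and 0.173% to 0.200% in DR, against 0.0577% to 0.0609% in AL. Reads on rRNA made up 11.5% to 20.9% of the DR translated libraries and 0.517% to 7.77% of the other 20. The double mutants could be checked at *rsks-1*, the S6 kinase gene, whose total mRNA was 13.7 ± 0.866 CPM in DM and 81.5 ± 4.19 CPM in AL. Total mRNA of *daf-2*, the insulin-like receptor gene, was 51.8 ± 1.26 CPM in DM and 53.5 ± 2.91 CPM in AL, which checks nothing if its allele alters only the protein. Because whole worms were sequenced, fewer cells of a type and less RNA per cell cannot be told apart.

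*mtl-1* was the member with the largest difference between the double mutants and either N2 condition. Its total mRNA measured 459, 436, 486 and 439 CPM in the 4 DM libraries, 23.1, 22.7, 22.5 and 19.8 CPM in the DR libraries, and 24.7, 22.6, 24.2 and 26.7 CPM in the AL libraries. The DM libraries lay far above all others, and the DR and AL ranges overlapped. In translated mRNA the values were 1050, 890, 858 and 919 CPM in DM, 102, 87.4, 90.3 and 92.0 CPM in DR, and 40.6, 43.2, 41.2 and 51.3 CPM in AL. Here the 3 conditions were fully separated, with DR between DM and AL.

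*mtl-2* followed another order. Total mRNA measured 54.3, 53.1, 54.6 and 53.7 CPM in DM, 20.6, 21.8, 22.3 and 21.1 CPM in DR, and 28.7, 32.5, 33.2 and 34.4 CPM in AL. DR was thus the lowest condition in total mRNA, below every AL library. Translated mRNA of *mtl-2* measured 74.9, 64.9, 59.2 and 69.1 CPM in DM, 152, 146, 143 and 148 CPM in DR, and 36.1, 40.6, 35.8 and 35.9 CPM in AL. DR was the highest condition in translated mRNA, above every DM and AL library, so the order of the conditions differed between the pools.

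*ftn-1* was lowest in AL worms in both pools. Its total mRNA measured 65.7, 65.6, 69.7 and 70.6 CPM in DM, 95.02, 95.2, 94.5 and 91.4 CPM in DR, and 16.4, 14.2, 14.2 and 13.4 CPM in AL. Translated mRNA measured 183, 155, 150 and 152 CPM in DM, 413, 428, 401 and 403 CPM in DR, and 36.7, 40.3, 36.8 and 39.5 CPM in AL. No ranges touched, and the order from low to high was AL, DM, DR in each pool.

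*ftn-2* was the most abundant ferritin transcript throughout. Total mRNA measured 174, 180, 173 and 172 CPM in DM, 320, 307, 315 and 321 CPM in DR, and 248, 244, 247 and 245 CPM in AL. Translated mRNA measured 366, 336, 335 and 352 CPM in DM, 1557, 1596, 1601 and 1489 CPM in DR, and 516, 535, 517 and 531 CPM in AL. The order from low to high was DM, AL, DR in each pool, again with no overlap, so that DM and DR stood on opposite sides of AL for this ferritin.

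*smf-3* was rare. Total mRNA measured 3.45, 3.62, 2.75 and 2.94 CPM in DM, 6.06, 5.75, 6.35 and 5.29 CPM in DR, and 0.485, 0.865, 0.777 and 0.579 CPM in AL. Translated mRNA measured 4.34, 4.02, 4.30 and 5.26 CPM in DM, 7.29, 9.53, 10.2 and 8.62 CPM in DR, and 1.35, 1.33, 0.454 and 1.03 CPM in AL. The 8 AL libraries rest on 4 to 13 *smf-3* reads each, and their translated and total ranges overlapped. The order of conditions from low to high was AL, DM, DR in each pool, the same as for *ftn-1*.

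**Figure D1:**
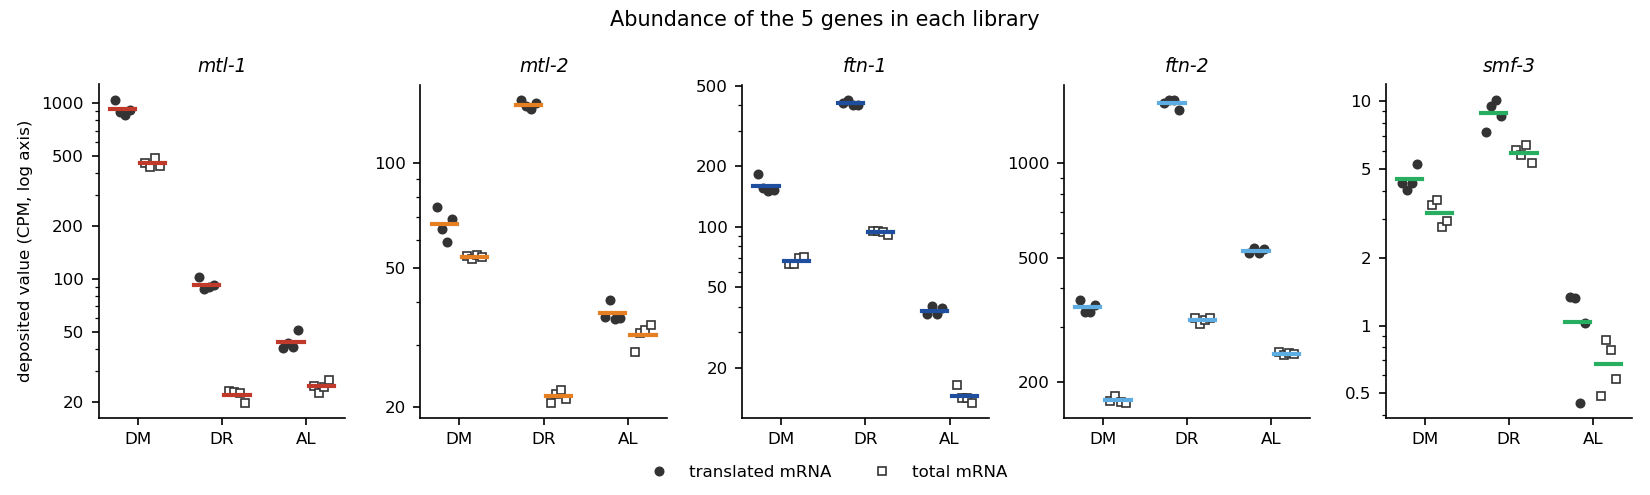
Deposited values (CPM, log axis with its own range for each gene) of the 5 genes in the DM, DR and AL groups; filled circles are the 4 translated mRNA libraries, open squares the 4 total mRNA libraries, and coloured lines the group means. *mtl-1* stood highest in DM (929 ± 84.3 CPM in translated mRNA), whereas the other 4 genes stood highest in DR translated mRNA, with *ftn-2* at 1561 ± 51.9 CPM.

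To place the genes on an approximate scale between genes, CPM were divided by exon length in kilobases. No correction was made for fragment length, which weighs most on transcripts as short as those of the metallothioneins, so their ranks are approximate. *ftn-2* had 2397 ± 79.7 CPM per kb in DR translated mRNA, rank 82 of 8345 genes tested, and 806 ± 15.2 CPM per kb in AL translated mRNA, rank 215. *mtl-1* reached 2491 ± 226 CPM per kb in DM translated mRNA, rank 24, against 118 ± 13.2 CPM per kb and rank 1195 in AL translated mRNA. In DM translated mRNA *mtl-1* lay above *ftn-2*, which had 533 ± 22.6 CPM per kb there.

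Shares within a gene family do not depend on how libraries are scaled. Of ferritin transcripts counted per length, *ftn-1* made up 29.5% ± 1.17 in DM, 24.2% ± 0.649 in DR and 5.96% ± 0.466 in AL total mRNA. In translated mRNA its share was 33.1% ± 1.41 in DM, 22.1% ± 0.597 in DR and 7.27% ± 0.196 in AL. The ferritin pool held more of the iron-regulated form in DM and DR than in AL, in every library of both pools. Of metallothionein transcripts, *mtl-1* made up 88.7% ± 0.399 in DM, 48.8% ± 1.86 in DR and 41.5% ± 2.23 in AL total mRNA. Its share in translated mRNA was 92.8% ± 0.240 in DM, 37.0% ± 1.101 in DR and 52.4% ± 3.20 in AL. For DR, the share of *mtl-1* lay above that of AL in total mRNA and below it in translated mRNA, with no overlap in either pool.

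**Figure D2:**
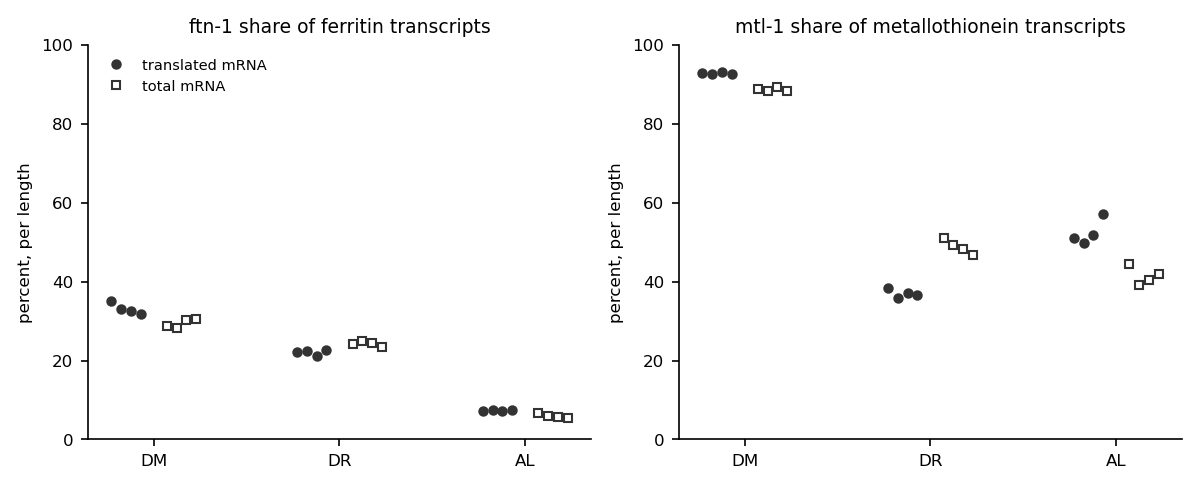
Share of *ftn-1* in the sum of *ftn-1* and *ftn-2* (left) and of *mtl-1* in the sum of *mtl-1* and *mtl-2* (right), in percent of CPM per kb of exon, for DM, DR and AL; filled circles are translated and open squares total mRNA libraries. *ftn-1* lay between 21.2% and 35.0% in DM and DR and between 5.55% and 7.47% in AL.

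What diet did to total mRNA was asked by setting DR against AL. *ftn-1* rose and the remaining tested members moved by less than 2-fold. Tests used limma on log2(CPM + 0.5) across the 8345 coding genes with a mean of at least 8 CPM, with Benjamini-Hochberg adjustment over all of them, and a gene is called changed when its adjusted p was below 0.05 and its level differed 2-fold or more. 4 of the 5 members passed that minimum. *smf-3* did not, and its tests come from a fit of the 12345 coding genes with a mean of at least 1 CPM. *ftn-1* total mRNA averaged 94.0 ± 1.77 CPM in DR and 14.5 ± 1.299 CPM in AL, a log2 change of 2.66 ± 0.05 (SE; limma adjusted p = 9.62e-34), the 16th largest rise of all genes tested. *ftn-2* total mRNA differed by 0.36 on the log2 scale and *mtl-2* total mRNA by -0.57, each without overlap between DR and AL but short of 2-fold. For *mtl-1* the total mRNA difference was -0.15 (limma adjusted p = 0.0267), and the DR and AL ranges overlapped. So 1 of 4 members was called higher, against 3.57% of all genes tested, and none was called lower, against 8.2% of all genes. The median log2 change of the 4 members was 0.10, and that of all genes tested -0.07. *smf-3* also rose, to 5.86 ± 0.454 CPM in DR against 0.677 ± 0.175 CPM in AL, a ratio of means of 8.66. Its fitted log2 change was 2.44 ± 0.17 (limma adjusted p = 8.25e-17), which the added 0.5 CPM makes smaller at such low levels, and 5.28% of the 12345 genes were called higher.

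Setting DR against AL in translated mRNA, all 4 tested members rose. *ftn-1* had the largest change, 3.41 ± 0.05 on the log2 scale, with 411 ± 12.0 CPM in DR and 38.3 ± 1.83 CPM in AL (limma adjusted p = 3.92e-37). *mtl-2* changed by 1.98 ± 0.06, with 147 ± 3.96 CPM in DR and 37.1 ± 2.33 CPM in AL. *ftn-2* changed by 1.57 ± 0.03, with 1561 ± 51.9 CPM in DR and 525 ± 9.86 CPM in AL. *mtl-1* was nearest the threshold, at 1.07 ± 0.06, with 93.0 ± 6.43 CPM in DR and 44.1 ± 4.92 CPM in AL. Every DR library lay above every AL library for each of these genes. The call of 4 of 4 stands against 7.03% of all genes called higher and 8.17% called lower, and the members' median was 1.77 against -0.10 for all genes. *smf-3* rose as well, by 2.65 ± 0.17, where 9.82% of the 12345 genes were called higher, and its ratio of means was 8.55. With plain CPM, meaning each library scaled to its own total without a composition factor, the *mtl-1* change was 0.96 and no longer called; that scaling moved the median of all genes by -0.11 and the share of higher genes among all calls to 35.6%, against 46.3% as deposited. Relative to the median of all genes, *mtl-1* changed by 1.17 under either scaling.

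**Figure D3:**
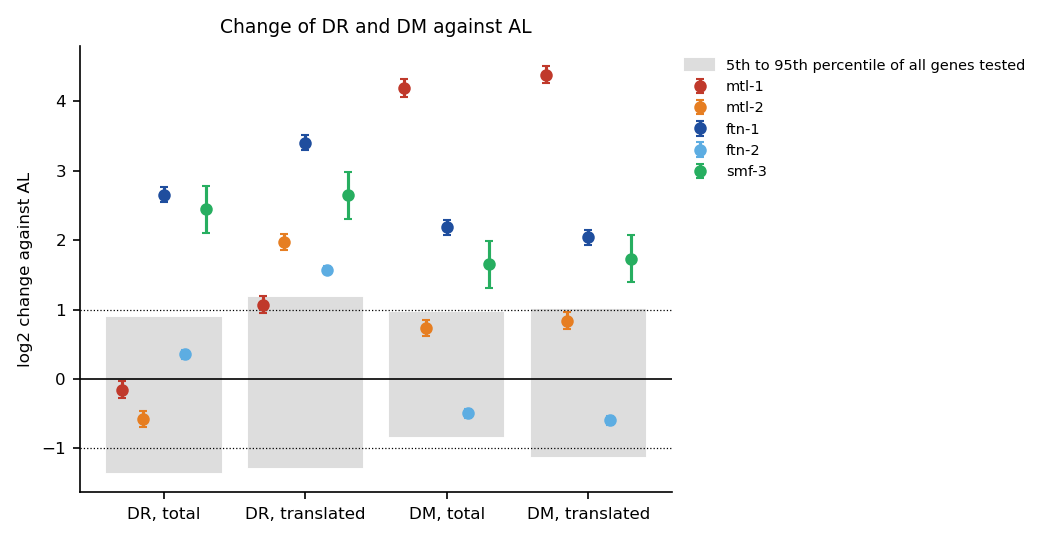
Log2 change of the 5 genes in DR and in DM, each against AL, for total mRNA and for translated mRNA, with 95% confidence intervals from limma; grey boxes span the 5th to 95th percentile of all 8345 genes tested and dotted lines mark 2-fold. *ftn-1* and *smf-3* lay above the grey boxes in all 4 comparisons, *mtl-1* by far in DM (4.19 and 4.38), and *ftn-2* changed in opposite directions in DR and DM translated mRNA (1.57 and -0.60). The boxes do not describe the fit of 12345 genes that *smf-3* comes from. In that fit at least 97.7% of genes had a lower log2 change than *smf-3* in each comparison.

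The double mutant on the AL diet was set against the same AL libraries, so these comparisons share their controls with those of DR. In total mRNA *mtl-1* rose by 4.19 ± 0.06 on the log2 scale, an 18.2-fold change (limma adjusted p = 1.71e-37) and the 20th largest rise of 8345 genes. *ftn-1* rose by 2.19 ± 0.05, with 67.9 ± 2.61 CPM in DM and 14.5 ± 1.299 CPM in AL. *mtl-2* was 0.74 ± 0.06 higher and *ftn-2* 0.50 lower (log2 change -0.50 ± 0.03), both without overlap of DM and AL and short of 2-fold. Thus 2 of 4 members were called higher, against 4.52% of all genes tested (3.22% were called lower), and their median of 1.46 compares with -0.11 for all genes. *smf-3* rose to 3.19 ± 0.413 CPM in DM against 0.677 ± 0.175 CPM in AL (log2 change 1.65 ± 0.17), where 7.4% of the 12345 genes were called higher. Genes called higher made up 58.4% of all calls as deposited and 70.4% with plain CPM, which shifted the median of all genes by 0.12.

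In translated mRNA the DM changes were close in size to those in total mRNA. *mtl-1* rose by 4.38 ± 0.06 to 929 ± 84.3 CPM in DM, against 44.1 ± 4.92 CPM in AL, a 20.9-fold change. *ftn-1* rose by 2.05 ± 0.05, to 160 ± 15.6 CPM in DM against 38.3 ± 1.83 CPM in AL. *mtl-2* was higher by 0.84 ± 0.06 and *ftn-2* changed by -0.60 ± 0.03, and neither was called. Again 2 of 4 members were called higher, against 4.89% of all genes (6.2% were called lower), with a median of 1.44 against -0.08. *smf-3* rose by 1.73 ± 0.17, where 7.73% of the 12345 genes were called higher. Plain CPM shifted the median of all genes by 0.31, raised the share of higher genes among all calls to 75.1%, against 44.1% as deposited, and put *mtl-2* past 2-fold at 1.15; relative to the median of all genes *mtl-2* changed by 0.92 under either scaling.

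Placed directly against each other, the double mutant and DR differed in which member was high. These groups differ in both genotype and diet, whose parts cannot be told apart here. In total mRNA *mtl-1* was 4.34 ± 0.06 higher in DM and *mtl-2* 1.31 ± 0.06 higher, so that 2 of 4 members were called higher, against 9.91% of all genes (5.03% were called lower). The ferritins had log2 differences of -0.47 (*ftn-1*) and -0.85 (*ftn-2*), and *smf-3* one of -0.79, none past 2-fold although no DM library overlapped a DR library. In translated mRNA *mtl-1* was 3.31 ± 0.06 higher in DM, which is 9.93-fold, while *ftn-2* was 2.17 lower (log2 change -2.17 ± 0.03), *ftn-1* 1.36 lower (-1.36 ± 0.05) and *mtl-2* 1.13 lower (-1.13 ± 0.06). That gives 1 member higher and 3 lower, against 8.62% and 8.32% of all genes tested. Plain CPM shifted the median of all genes by 0.41 in this comparison and left only *ftn-2* of the 3 called lower, at -1.75; *ftn-1* was then at -0.94 and *mtl-2* at -0.72, and higher genes were 82.6% of all calls against 50.9% as deposited. *mtl-2* is thus the member whose sign differed between the pools, being higher in DM total mRNA and lower in DM translated mRNA, and its sign did not flip in any scaling tried.

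The ratio of translated to total mRNA tells how much of a transcript was found on polysomes relative to other transcripts in the same condition. Under DR all 4 tested members were enriched on polysomes by more than 4-fold: *mtl-2* by 2.75 ± 0.06 on the log2 scale (147 ± 3.96 CPM translated and 21.4 ± 0.762 CPM total), *ftn-2* by 2.303 ± 0.03, *ftn-1* by 2.12 ± 0.05 and *mtl-1* by 2.05 ± 0.06. *mtl-2* had the 21st largest ratio of 8345 genes, and *ftn-2* the 71st. All 4 were called, against 16.8% of all genes called higher and 15.9% called lower under DR. Higher calls were also made for 6 of 11 intestine markers (median 1.17) and for 36.4% of the genes in the shortest decile by exon length, against 14.6% of the other genes. In AL 3 of the 11 intestine markers were called higher (median 0.78). Markers of other tissues had fewer such calls under DR, with 2 of 6 for body wall muscle, 1 of 5 for neurons and 0 of 4 for pharynx. Of 11 germline and oocyte markers 0 were called higher and 5 lower (median -0.78). In DM only *ftn-1* (1.23 ± 0.05) and *mtl-1* (1.03 ± 0.06) passed 2-fold among the 4, against 4.53% of all genes (9.59% were called lower), and *ftn-2* lay at the threshold with 0.99 ± 0.03. *mtl-1* was no longer called when DM translated replicate 1 was left out (0.97), so the count of 2 rests on that library. In AL the called members were *ftn-1* (1.37 ± 0.05) and *ftn-2* (1.09 ± 0.03), against 4.79% of all genes (11.2% were called lower), with *mtl-1* at 0.83 and *mtl-2* at 0.20.

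The *ftn-1* ratio in AL was the 22nd largest of all genes, so this ferritin was among the most polysome-enriched transcripts already in fully fed worms. *smf-3* had ratios of 0.56, 0.43 and 0.35 in DR, DM and AL, none of them called; in AL its translated and total ranges overlapped (limma adjusted p = 0.0545). Plain CPM lowered the median of all genes by 0.29 in DR and by 0.13 in AL (shifts of -0.29 and -0.13), and higher genes were then 30.3% of all calls in DR, against 51.4% as deposited, and 11.2% in AL, against 29.9%; *ftn-2* in AL was then at 0.95 and not called. For DM, median-ratio size factors moved the share of higher genes to 49.8%, against 32.1% as deposited, and *ftn-2* to 1.09.

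**Figure D4:**
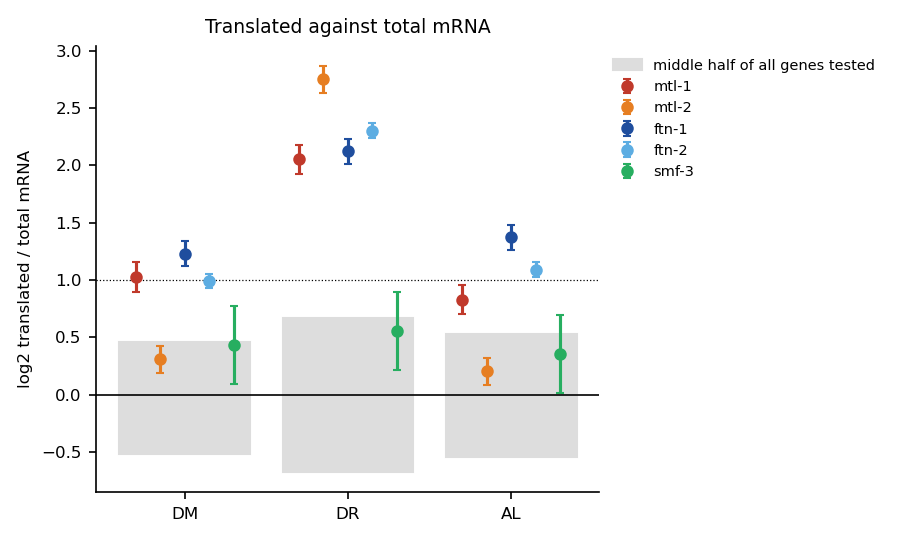
Log2 ratio of translated to total mRNA for the 5 genes in DM, DR and AL, with 95% confidence intervals from limma; grey boxes run from the lower to the upper quartile of all genes tested and the dotted line marks 2-fold. The 4 metallothionein and ferritin genes lay at 2.05 to 2.75 in DR, and *mtl-2* lay inside the grey box in DM (0.31) and AL (0.20). *smf-3* comes from the fit of 12345 genes, which the boxes do not describe.

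The differential polysome association ratio (DPAR) divides the translated to total ratio of one condition by that of AL, and so asks whether polysome association itself changed. For DR, *mtl-2* had a DPAR of 2.55 ± 0.08 on the log2 scale, which is 5.84-fold (limma adjusted p = 1.39e-25) and the 6th largest of 8345 genes. *mtl-1* had a DPAR of 1.22 ± 0.09 (limma adjusted p = 6.19e-15) and *ftn-2* of 1.21 ± 0.04 (limma adjusted p = 5.17e-24). *ftn-1* had a DPAR of 0.75 ± 0.08, short of 2-fold. Hence 3 of 4 members were called higher, against 3.88% of all genes tested (1.79% were called lower), with a median of 1.22 against 0.02. The 3 calls held under plain CPM, where the DPAR was 2.38 for *mtl-2*, 1.06 for *mtl-1* and 1.05 for *ftn-2*, although that scaling moved the median of all genes by -0.16 and the share of higher genes among all calls to 41.7%, against 68.5% as deposited. TMM factors over the tested genes moved that share to 80.5%.

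By the definition of the DPAR, a gene's log2 change in translated mRNA is the sum of its change in total mRNA and its DPAR. Under DR the members differed in the size of these parts. For *ftn-1*, the change of 3.41 in translated mRNA was made up of 2.66 in total mRNA and a DPAR of 0.75. For *mtl-2*, the change of 1.98 was made up of -0.57 in total mRNA and a DPAR of 2.55. *ftn-2* and *mtl-1* lay nearer to *mtl-2*, with 0.36 and -0.15 in total mRNA. For *smf-3* the DPAR was 0.20, with a 95% confidence interval of -0.28 to 0.68 (limma adjusted p = 0.489), and that interval holds both no change and a rise of 0.68. Its change of 2.65 in translated mRNA stood beside one of 2.44 in total mRNA.

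In DM no tested member had a called DPAR. *mtl-1* had 0.20 (95% confidence interval 0.02 to 0.38), *mtl-2* 0.10 (-0.07 to 0.27), *ftn-1* -0.14 (-0.30 to 0.01), *ftn-2* -0.10 (-0.19 to -0.01) and *smf-3* 0.08 (-0.40 to 0.56). The intervals leave out a 2-fold change in either direction for all 5. By limma, 2 of the 4 tested members had an unadjusted p under 0.05, and edgeR and DESeq2 on recovered reads called 0 and 0 members. Among all genes tested, 0.527% were called higher and 1.22% lower. With plain CPM the DPAR of *ftn-1* was 0.040 and that of *ftn-2* 0.084, so their sign in DM depends on the scaling, which moved the median of all genes by 0.18 and the share of higher genes among all calls to 80.8%, against 30.1% as deposited.

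Short length is a feature that the metallothionein and ferritin genes share, whereas *smf-3* has 1942 nt of exon. *mtl-1*, *mtl-2* and *ftn-1* belong to the shortest decile of the genes tested (836 genes with exons of up to 626 nt), and *ftn-2* is just above that limit. Within the shortest decile, 12.4% of genes had a called higher DPAR under DR, against 2.93% of the other genes, and the median DPAR was 0.14 against 0.01. Among these 836 short genes *mtl-2* ranked 5th by DPAR under DR, *mtl-1* 66th and *ftn-1* 189th. In DM, 0.598% of short genes and 0.519% of the others had a called higher DPAR, and 4.55% of short genes and 0.852% of the others a called lower one. The part of length in the members' values was not tested.

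**Figure D5:**
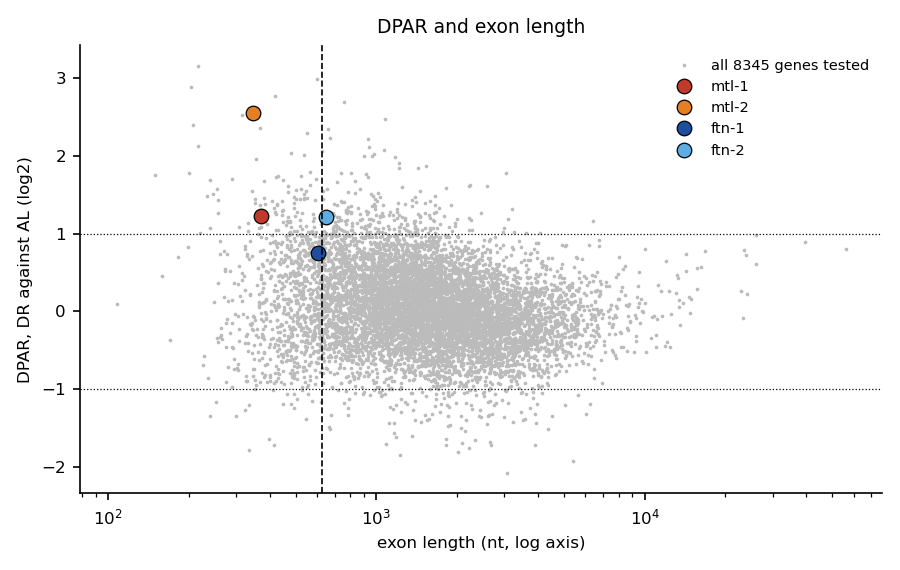
DPAR of DR against AL (log2) against exon length (nt, log axis) for all 8345 genes tested (grey) and the 4 tested members (coloured); the dashed line marks the upper limit of the shortest decile, 626 nt, and dotted lines mark 2-fold. *mtl-2* stood at 2.55 near the top left, while *mtl-1* and *ftn-2* stood at 1.22 and 1.21 and *ftn-1* at 0.75.

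Other genes of metal handling were counted by list. Of 13 genes of iron transport and its regulators, 9 were tested, and the only call in the 4 comparisons with AL was *aco-1*, the cytosolic aconitase whose mammalian relative is an iron regulatory protein, just past 2-fold in DM total mRNA (154 ± 5.09 CPM in DM and 76.4 ± 2.34 CPM in AL). Across these 4 comparisons, 3.57% to 7.03% of all genes tested were called higher and 3.22% to 8.2% lower. Under DR none of the 9 was called by limma, edgeR or DESeq2 in total mRNA (0 of 9, with 6 at an unadjusted p under 0.05) or in translated mRNA (0 of 9, with 9 at such a p), and their total mRNA median was 0.00 against -0.07 for all genes. *smf-1*, the close relative of *smf-3*, differed by -0.28 in DR and 0.31 in DM total mRNA. *hif-1*, which encodes the hypoxia factor named above, differed by 0.21 in DR and 0.04 in DM total mRNA. Neither was called. *rhy-1*, a regulator of HIF-1, was not tested because its mean of 7.78 CPM was just under the minimum; its total mRNA was 2.17 ± 0.489 CPM in DR and 5.65 ± 1.13 CPM in DM, against 13.8 ± 0.4998 CPM in AL, and its translated mRNA 4.52 ± 1.16 CPM in DR and 6.97 ± 0.527 CPM in DM, against 13.6 ± 1.60 CPM in AL. Between the double mutant and DR, *fpn-1.1*, which encodes a ferroportin, the family of iron exporters, was 1.18 higher in DM total mRNA (45.3 ± 1.84 CPM in DM and 19.8 ± 1.64 CPM in DR). That was 1 of the 9 genes called higher, against 9.91% of all genes tested.

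Of 8 haem genes only 3 passed the minimum, and *hrg-7*, which encodes a secreted protease-like signal of haem status, rose by 1.15 in DM total mRNA, with 23.9 ± 1.41 CPM in DM and 10.5 ± 0.943 CPM in AL. In that comparison 4.52% of all genes tested were called higher. Of 16 genes for zinc, cadmium and copper, 12 were tested. *ttm-1*, a zinc exporter, had a called DPAR of 1.08 under DR, with 94.0 ± 4.61 CPM in DR translated mRNA and 47.3 ± 1.60 CPM in AL translated mRNA, while its total mRNA was 39.7 ± 1.57 CPM in DR and 42.5 ± 1.51 CPM in AL. *ttm-1* was the only one of the 12 with a called DPAR under DR, against 3.88% of all genes called higher. The median DPAR of the 12 was 0.26 against 0.02 for all genes. *numr-1*, a nuclear metal-response gene, fell in DR total mRNA by 1.43 and in DM total mRNA by 1.88 on the log2 scale, but the annotation gives this name to 2 genes of the same length, so its reads may be split between near-identical copies and its values are uncertain. Among 6 transcription factors of the intestine and of stress responses, such as *daf-16*, *elt-2* and *pqm-1*, 0 were called against AL in either condition and pool by limma, edgeR or DESeq2. The shares over all genes tested were 3.57% to 7.03% higher and 3.22% to 8.2% lower in these comparisons. An unadjusted p under 0.05 was found for 3 of the 6 in DR total, 6 in DR translated, 3 in DM total and 5 in DM translated mRNA. Their log2 changes lay between -0.48 and 0.21 in DR total mRNA and between -0.47 and 0.04 in DM total mRNA. Set against DR, *pqm-1* was called lower in DM translated mRNA, at -1.02, with 61.2 ± 2.73 CPM in DM and 125 ± 3.92 CPM in DR. There 8.32% of all genes tested were called lower. A change in the level of a factor's mRNA need not go with one in its activity.

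Since *mtl-2* and *ftn-1* are known as intestinal genes, and *ftn-2* as a more widely expressed one, the members were set beside 11 markers of the intestine. None was at 0 in any group. Their summed level was 1484 to 1556 CPM in DR and 918 to 966 CPM in DM total mRNA, against 2018 to 2095 CPM in AL total mRNA. In translated mRNA the sums were 3603 to 3874 CPM in DR and 1489 to 1554 CPM in DM, against 3498 to 3752 CPM in AL. These sums weigh the abundant markers most, and single markers went both ways. In DR total mRNA 0 of 11 were called higher and 2 lower (log2 changes -1.61 to 0.59, median -0.23), and in DR translated mRNA 0 higher and 2 lower (median 0.28). The shares over all genes tested were 3.57% higher and 8.2% lower in DR total mRNA, and 7.03% and 8.17% in DR translated mRNA. In DM total mRNA 1 intestine marker was called higher and 3 lower (-1.99 to 1.14, median -0.71), and in DM translated mRNA 0 higher and 6 lower (median -1.05). Here the shares over all genes were 4.52% higher and 3.22% lower in total mRNA, and 4.89% and 6.2% in translated mRNA. The DPAR of the intestine markers under DR had a median of 0.40, and 1 of 11 was called higher, against 3.88% of all genes tested and 3 of 4 members. The 4 pharynx markers, which bear on *mtl-1*, summed to 208 to 214 CPM in DR and 81.8 to 93.0 CPM in DM, against 66.0 to 75.6 CPM in AL total mRNA.

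Markers of other tissues moved with DR as well. Body wall muscle markers were called higher for 4 of 6 genes in DR total mRNA (median 1.13) and for 6 of 6 in DR translated mRNA (median 1.68), a median close to the 1.77 of the members. Their sum was 2607 to 2764 CPM in DR and 1055 to 1147 CPM in DM, against 715 to 796 CPM in AL translated mRNA. The pharynx list had 3 of 4 markers called higher in each pool under DR (medians 1.48 in total and 1.81 in translated mRNA). Of the neuron markers 2 of 5 tested were called higher in DR translated mRNA (median 0.69), and the 1 hypodermis marker tested, *col-19*, changed by 2.14 there. In the same comparison 0 of 11 germline and oocyte markers were called higher and 3 lower (median -0.32). All genes tested had 3.57% called higher in DR total mRNA, and 7.03% higher and 8.17% lower in DR translated mRNA. Under DR the DPAR had a median of 0.55 for the muscle markers, with 0 of 6 called by limma, edgeR or DESeq2 and 6 at an unadjusted p under 0.05, and *col-19* had a called DPAR of 1.11. Its median was 0.12 for the neuron, -0.01 for the pharynx and -0.17 for the germline and oocyte markers. In these lists limma, edgeR and DESeq2 called 0 genes, with 3 of 5, 1 of 4 and 9 of 11 at an unadjusted p under 0.05. A called higher DPAR was found for 3.88% of all genes tested. The part of these tissues in the members' values was not tested.

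Among themselves the members fell into no single pattern. Over the 24 libraries, Pearson's r of log2 values was highest for *ftn-1* with *smf-3* (0.92) and lowest for *mtl-1* with *ftn-2* (-0.14), while the metallothioneins had an r of 0.54 and the ferritins one of 0.65. These libraries form 6 groups, so that r describes the 6 group levels and is given without a test. By the same measure the tested genes nearest to *mtl-1* were *srg-31* (r = 0.99), *atic-1* and *pnk-1*, and those nearest to *mtl-2* were C33H5.13 (r = 0.98), *nlp-36* and Y119D3B.21. Nearest to *ftn-1* were *eif-3.B* (r = 0.99), *dod-3* and Y111B2A.12. Of these, *dod-3* averaged 211 CPM in DR and 22.1 CPM in AL translated mRNA, a spread like that of *ftn-1*. Nearest to *ftn-2* were *phat-8* (r = 0.996), *dhs-14* and C53B7.2, and nearest to *smf-3* were Y16B4A.2 (r = 0.97), *csq-1* and *prk-1*. The *phat-8* transcript averaged 255 CPM in DR, 79.3 CPM in DM and 98.2 CPM in AL translated mRNA, in the same order as *ftn-2*.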

How the data were processed

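Total RNA and polysome-bound RNA of whole worms were enriched for poly(A) and sequenced from unstranded paired-end libraries. The authors aligned reads to genome WS220 with TopHat guided by Ensembl 66, counted them per gene with HTSeq 0.6.1 and normalized with edgeR 3.0. The deposited signal values are CPM: reads per gene divided by library size times a composition factor. They were tested to be whole multiples of the value of 1 read in 100% of cases (tolerance 0.05 reads), so read counts per gene were recovered from the deposited values and used only in alternative tests. Column sums were 864992 to 1237732, as the composition factors make them, and all 24 columns were used.

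Of the 45461 genes, 44936 matched the Ensembl 115 annotation, which served for names, biotypes and lengths; its build differs from the authors', so no coordinates are given. Coding genes with a mean of at least 8 CPM (8345) were fitted with limma 3.58.1 (R 4.3.3) on log2(CPM + 0.5), trended variance, 6 group means and 11 comparisons; fold changes are on that scale, which understates low genes. The analysis plan took CPM that sum to a constant, and the composition-scaled values were tested as planned. Because *smf-3* has a mean of 4.02 CPM, it was tested at a minimum of 1 CPM. Alternatives were edgeR 4.0.16 and DESeq2 1.42.0 on recovered reads, other scalings, pseudocounts of 0.1 and 1, other minimums, genes of all types, N2 libraries alone, replicate blocks and leaving out each library. On simulated data, all of 200 changed genes among 8345 were recovered at log2 changes of 1.5 and 2 (100%), with 0 false calls, for DR against AL in total mRNA and for the DR DPAR. Changes nearer the 2-fold threshold and genes as low as *smf-3* were not simulated, so the recovery says nothing about calls there. No 2 libraries of a group agreed within sampling noise (lowest chi-square per degree of freedom 1.26). Counting error limits low genes; AL values of *smf-3* rest on few reads.

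The 5 members and the gene lists were chosen with earlier results of these data known. Named genes are the members, up to 4 genes of each metal-handling or transcription factor list that were called in a comparison of diet or strain, and for each member the 3 tested genes with the highest Pearson r over 24 libraries. *smf-1*, *hif-1*, *rhy-1*, *daf-16*, *elt-2* and *col-19* were named outside that rule, after their values were seen. So were *fpn-1.1*, *pqm-1* and *ttm-1*, which had no call in DR or DM against AL within a pool. List symbols fpn-1.3 and numr-2 were not matched.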

Additional observations from a re-analysis of the deposited data

Results flagged for a closer look

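For 3 members the ratio of translated to total mRNA differed 2-fold or more between DR and AL worms and was called by the interaction test in limma. The DPAR was 2.55 for *mtl-2*, 1.22 for *mtl-1* and 1.21 for *ftn-2* (log2; limma adjusted p = 1.39e-25, 6.19e-15 and 5.17e-24). *ftn-1* differed by the same test as well, at 0.75 (limma adjusted p = 4.54e-11), but fell short of 2-fold. For each of the 3 called members, and for *ftn-1*, the smallest ratio between any translated and any total mRNA library of DR was above the largest such ratio in AL.

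In 2 of 30 groups of 4 libraries, 1 library stood apart by Dixon's criterion, which by chance marks about 1 group in 20. *mtl-2* had 40.6 CPM in AL translated replicate 2, against 35.8 to 36.1 CPM in the other 3. *ftn-1* had 183 CPM in DM translated replicate 1, against 150 to 155 CPM in the other 3. Leaving out AL translated replicate 2 or DM translated replicate 1 changed no call of *mtl-2* or *ftn-1*.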

How the results depend on the processing

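Over the alternatives, 1943 log2 changes kept their direction and their side of the threshold, 9 changed sign, 5 fell short of the threshold and 7 newly passed it. With plain CPM, the DPAR of DM against AL was 0.040 for *ftn-1* and 0.084 for *ftn-2*. The DPAR of *smf-3* changed sign for DR with edgeR (-0.011), DESeq2 (-0.019) and without AL translated replicate 3 (range over libraries left out -0.012 to 0.31), and for DM with a pseudocount of 0.1 CPM (-0.00787), edgeR (-0.15), DESeq2 (-0.15) and without that replicate (-0.13 to 0.18). No *smf-3* DPAR was called. Plain CPM left 1 member called lower in DM against DR translated mRNA (3 as deposited), and 1 called higher in AL translated against total mRNA (2 as deposited). Without DM translated replicate 1, 1 member was called higher in DM translated against total mRNA, and over all libraries left out in turn this count was 1 to 3. In the same comparison *ftn-2* crossed 2-fold with plain CPM (1.04), TMM (1.03) and median-ratio factors (1.09). The cause was not tested. Replicate numbers were checked as pairs: over 15 pairs of groups, correlations of same-numbered deviations ran from -0.25 to 0.14, and 0 had all of them over 0.1. The sources used here do not say whether a total and a translated library of the same number came from the same worms, so no pairing was used. With the replicate block, or with condition and number together as a block, the DR DPAR of *mtl-2* was 2.55, and no count of called members changed.

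Counts over all genes moved by more than 1.5 times mainly with the minimum level, given here at 1 CPM and without a minimum, against 8 CPM. For DR against AL in total mRNA they were 652 and 720 higher, against 298, and 1143 and 1177 lower, against 684. For DR against AL in translated mRNA they were 1212 and 1366 higher, against 587, and 1203 and 1344 lower, against 682. For DM against AL in total mRNA they were 913 and 1103 higher, against 377, and 453 and 487 lower, against 269. For DM against AL in translated mRNA they were 954 and 1111 higher, against 408, and without a minimum 847 lower, against 517. For DM against DR in total mRNA they were 1637 and 1922 higher, against 827, and 737 and 873 lower, against 420. For DM against DR in translated mRNA they were 1500 and 1746 higher, against 719, and 1178 and 1317 lower, against 694. For the DR DPAR they were 517 and 579 higher, against 324, and 293 and 432 lower, against 149. For the DM DPAR they were 91 and 94 higher, against 44, and without a minimum 168 lower, against 102. With plain CPM they were 793 higher against 408 for DM against AL in translated mRNA, 263 lower against 517 for DM against AL in translated mRNA, 1538 higher against 719 for DM against DR in translated mRNA, 323 lower against 694 for DM against DR in translated mRNA, 153 higher against 400 for translated against total mRNA in AL. They were also 876 higher against 1403 for translated against total mRNA in DR, 2011 lower against 1325 for translated against total mRNA in DR, 203 higher against 324 for the DR DPAR, 284 lower against 149 for the DR DPAR, 118 higher against 44 for the DM DPAR, 28 lower against 102 for the DM DPAR. With median-ratio factors, 598 genes were higher, against 378, in translated against total mRNA of DM. The fitted change of *smf-3*, which rests on few reads and moves with the pseudocount, was 2.04 to 3.11 in DR and 1.32 to 2.24 in DM total mRNA over all alternatives.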
